A study of Mus musculus with 2 samples.

Results

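The 10 genes described here are markers of pluripotent stem cells: Pou5f1 (Oct4), Nanog, Sox2, Dppa5a, Dppa4, Dppa3, Tdgf1, Utf1, Gdf3 and Zfp42 (Rex1). They were taken by name, as all probe sets that carry only that gene's symbol in the platform annotation. Each gene had 1 such probe set, so 10 of 20380 single-symbol probe sets and 10 of 12393 genes are described. The samples were teratomas, which are tumours of mixed differentiated tissue that pluripotent cells form after transplantation. The first group came from C57BL/6 (B6) embryonic stem (ES) cells, and the other from EiPS cells, which are reprogrammed (induced pluripotent) cells of that strain, labelled 1E12 iPS and made in the study with episomal vectors. All cells were placed under the skin of male B6 mice, and tumours were removed after 6 weeks. Each array held pooled RNA of 2 tumours, and the EiPS tumours are described by the submitters as regressing. With 1 array per group nothing below has a replicate, no test was possible, and each difference compares 2 pools of tumours rather than the cell lines. A whole tumour also holds host cells, and in such bulk RNA fewer cells of a type and less RNA per cell cannot be told apart.

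Pluripotent cells are kept undifferentiated by a small circuit of transcription factors. Pou5f1 and Sox2 bind DNA side by side at a composite site and, with Nanog, activate each other and many genes of the early embryo. Differentiation silences most of the circuit. Primordial germ cells express several of the same genes, and Sox2 is also used by neural progenitors and by epithelia of the foregut, so its RNA is not particular to undifferentiated cells. Of the other genes, Zfp42 and Utf1 encode nuclear proteins of undifferentiated cells, Dppa3 and Dppa4 chromatin-associated proteins of the early embryo, and Dppa5a an RNA-binding protein. Tdgf1 (Cripto) is a co-receptor for Nodal, and Gdf3 a ligand of the TGF-beta family.

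Because the circuit acts through such sites, the upstream sequences of the members were read from RefSeq (GRCm38.p6), as the 250 bases before each annotated start. The table held 8 such windows for 6 of the 10 genes, namely Pou5f1, Nanog, Sox2, Tdgf1, Utf1 and Zfp42. The windows of 3 of them hold the letters ATGCAAA, 7 of the 8 letters of the octamer ATGCAAAT that Pou5f1 recognises, searched on both strands. They are shown here 5′ to 3′ on the gene's own strand, with the match in capitals. In Nanog the capitals are the 14 letters TTTGCATTACAATG, in which those 7 letters, read on the reverse strand, are followed by ACAATG, a Sox-type site; they lie 75 to 62 bases before the start. In Zfp42 they are the full octamer on the reverse strand, 186 to 179 bases before the start, and in Sox2 the 7 letters, 99 to 93 bases before it.
Nanog, chr6:122707239-122707488, plus strand: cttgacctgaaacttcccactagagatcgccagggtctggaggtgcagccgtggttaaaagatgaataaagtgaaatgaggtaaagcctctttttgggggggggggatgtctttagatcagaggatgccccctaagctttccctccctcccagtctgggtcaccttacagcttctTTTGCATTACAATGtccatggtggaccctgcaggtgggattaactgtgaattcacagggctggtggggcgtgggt
Zfp42, chr8:43307010-43307259, minus strand: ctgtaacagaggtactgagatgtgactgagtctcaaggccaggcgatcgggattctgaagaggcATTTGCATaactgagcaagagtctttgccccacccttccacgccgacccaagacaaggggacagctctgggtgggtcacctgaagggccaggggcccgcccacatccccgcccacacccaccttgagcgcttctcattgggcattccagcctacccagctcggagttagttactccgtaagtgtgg
Sox2, chr3:34649745-34649994, plus strand: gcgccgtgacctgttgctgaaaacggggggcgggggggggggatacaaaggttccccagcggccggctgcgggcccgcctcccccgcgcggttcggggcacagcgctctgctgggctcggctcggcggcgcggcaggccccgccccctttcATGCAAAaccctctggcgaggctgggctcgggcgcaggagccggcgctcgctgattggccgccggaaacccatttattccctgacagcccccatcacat
Among 32851 promoter windows of the same length, ATGCAAA or its reverse complement was in 4.12%, and the full ATGCAAAT in 1.6%. The 7 letters with ACAATG next to them, with at most 2 bases between, were in 3 windows, of which 2 are the overlapping windows of Nanog starts. The windows also differed in CpG dinucleotides, which had a median of 6 over all windows: Sox2 had 27, Utf1 14, Zfp42 9 and Tdgf1 7, the Pou5f1 windows had 8 and 6, and the Nanog windows 3 and 2. A match is a description of these letters, and binding was not measured.

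Signals are MAS5 intensities on a linear scale, set by the authors to the same trimmed mean on both arrays. The level that stands for background was taken from 72 probe sets of odorant, vomeronasal, taste and trace amine receptors, taken as silent here. The 90th percentile of their signals over both arrays, 26.0, served as the floor, and their 98th percentile, 49.0, as a stricter one. A gene under the floor on 1 array is set to the floor there, and its fold is then a lower bound, written "at least". The receptors' own 90th percentile was 24.1 among the B6 ES values and 32.4 among the EiPS values, and 5 and 10 of the 72 were above the floor. The brightest of them, Vmn1r44, had signals of 55.1 and 99.4. Levels of different probe sets are not compared, since probes differ in brightness.

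All 10 genes exceeded the floor in the EiPS tumours, and 5 of 10 did in the B6 ES tumours. Over all 12393 genes, 86.5% exceeded it in the EiPS tumours and 84.3% in the B6 ES tumours. The genes under the floor in the B6 ES tumours were Pou5f1, Nanog, Dppa4, Tdgf1 and Zfp42. All 10 had higher signals in the EiPS tumours, against 56.2% of 10953 genes compared, 7 of them by at least 2-fold, against 5.79%, and 3 by at least 4-fold, against 0.822%. None was lower, while 3.05% of genes compared were at least 2-fold lower. The median log2 difference, EiPS less B6 ES, was 1.63 with bounds taken as they stand, against 0.07 over all genes compared.

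**Figure D1:**
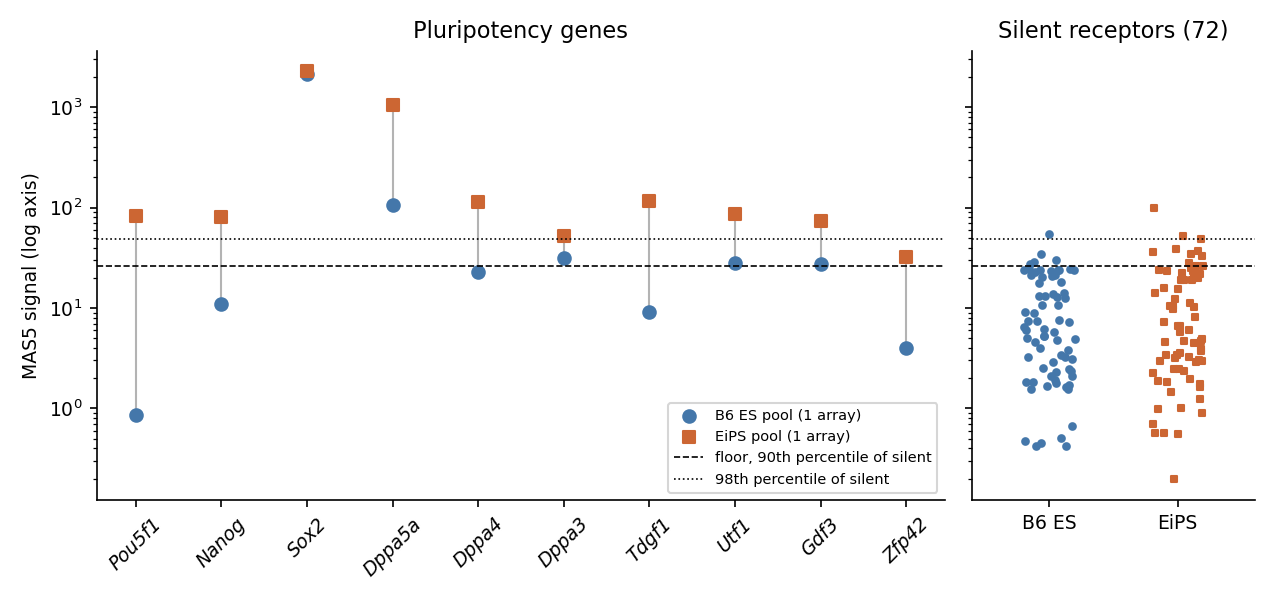
Signals of the 10 pluripotency genes (left) and of 72 probe sets of silent receptors (right) on the B6 ES and EiPS arrays, on a log axis, 1 array per group, with the floor dashed and the 98th percentile of the receptors dotted. Every gene's EiPS signal lies above its B6 ES signal, but apart from Sox2 and Dppa5a the EiPS signals, from 32.1 to 115, lie close to the top of the silent receptors.

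The core factors differed from one another. Pou5f1, the POU-domain factor at the centre of the circuit (probe set 1417945_at), had signals of 0.852 in the B6 ES tumours and 81.9 in the EiPS tumours, at least 3.15-fold higher. Nanog, the homeobox factor that stabilises the undifferentiated state (1429388_at), had signals of 11.0 and 80.9, at least 3.11-fold higher. For both genes the B6 ES signal cannot be told from background, and the EiPS signal exceeded those of 71 of the 72 silent receptors on that array. Vmn1r44 was the receptor above them.

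Sox2, which encodes the HMG-box partner of Pou5f1 (1416967_at), went a different way. Its signals were 2149 in the B6 ES tumours and 2285 in the EiPS tumours, a difference of 0.09 on the log2 scale, or 1.06-fold, close to the middle of all genes compared and turned to -0.037 when the arrays were scaled to equal medians. It was far above background on both arrays, including the B6 ES array on which its partners Pou5f1 and Nanog were under the floor. Sox2 is also expressed by other cells, and their markers were above the floor about as often as all genes (84.3% and 86.5%). Of 13 neural progenitor genes with a probe set, 11 were above the floor in the B6 ES tumours and 12 in the EiPS tumours. Of 8 genes of stratified epithelium and foregut, 7 were above it on each array, with Nkx2-1 under it on both. The signals of these lists sum to 27976 and 29312 for neural progenitors and to 9604 and 12300 for epithelium. Since probes differ in brightness, these sums follow the brightest probe sets and do not give amounts of cells. Most of the neural sum is Fabp7 (13078 and 10067) and Vim (10212 and 14007), and 7 of 12 neural progenitor genes compared were lower in the EiPS tumours. The part of these cells in the Sox2 signal was not tested.

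Dppa5a had the largest difference of the 10, with bounds taken as they stand. Its probe set (1416552_at) had signals of 106 in the B6 ES tumours and 1052 in the EiPS tumours, 9.96-fold higher, or 3.32 on the log2 scale, which is larger than the difference of 99.8% of genes compared. Apart from Sox2 it was the only member above all 72 silent receptors on both arrays. Dppa4, a nuclear protein with a DNA-binding SAP domain (1429597_at), had signals of 23.0 and 113, at least 4.34-fold higher. Dppa3 (Stella), a maternal factor that protects DNA methylation in the zygote and marks primordial germ cells (1424295_at), had signals of 31.5 and 52.6, 1.67-fold higher. The 3 genes share a name given for developmental pluripotency, not a family, and their differences ran from 0.74 for Dppa3 to 3.32 for Dppa5a.

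The signalling genes were both higher. Tdgf1 (1450989_at) had signals of 9.06 in the B6 ES tumours and 115 in the EiPS tumours, at least 4.43-fold higher. Gdf3 (1449288_at) had signals of 27.4 and 73.6, 2.69-fold higher. Tdgf1 exceeded all 72 silent receptors on the EiPS array and Gdf3 71 of them, while on the B6 ES array Gdf3 was just above the floor.

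Among the nuclear markers, Utf1 (1416899_at) had signals of 28.0 and 86.3, 3.08-fold higher in the EiPS tumours. Zfp42, a zinc finger protein of undifferentiated cells (1418362_at), had signals of 3.99 and 32.1, at least 1.24-fold higher. Its EiPS signal exceeded 64 of the 72 silent receptors but was under their 98th percentile. It was also just under their 90th percentile on the EiPS array alone, 32.4. Zfp42 is therefore the member for which detection in the EiPS tumours is least clear.

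**Figure D2:**
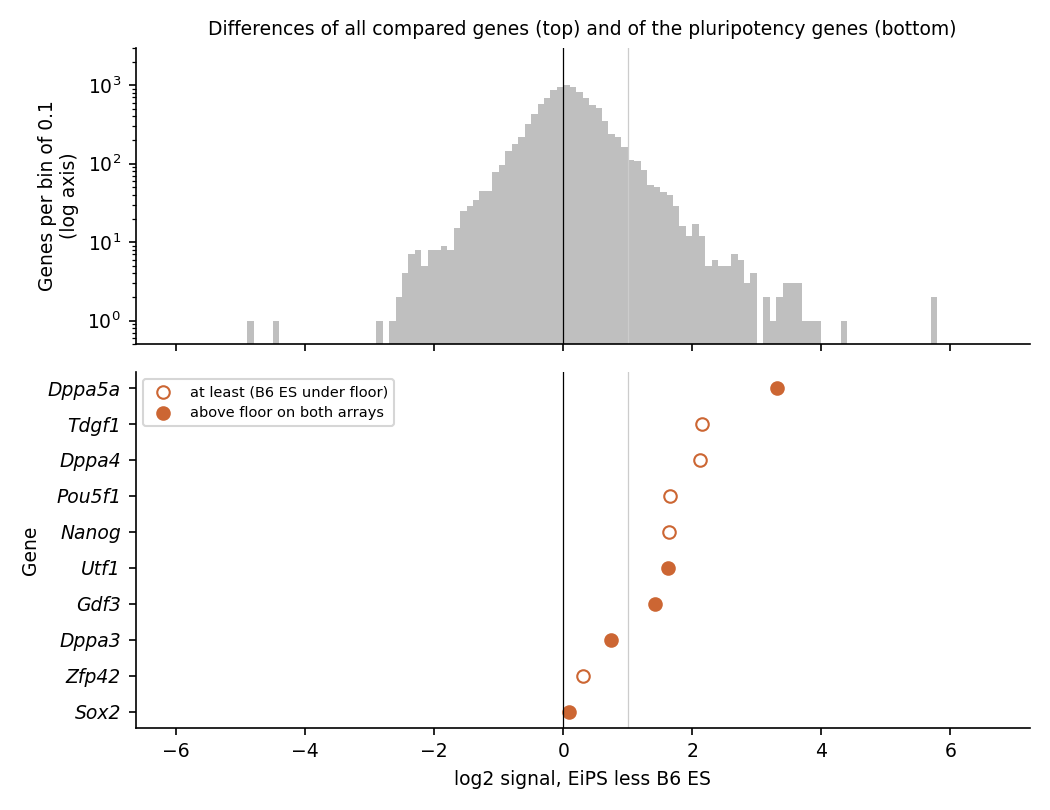
Log2 differences, EiPS less B6 ES, of all 10953 genes compared (top, genes per bin of 0.1 on a log axis) and of the 10 pluripotency genes (bottom), with open circles for lower bounds and grey lines at 2-fold. Dppa5a lies at 3.32, 6 genes between 1.43 and 2.15, and Dppa3, Zfp42 and Sox2 under 1.

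Most of these differences start from signals at background, where signals are least precise. The nearest gauge of measurement noise is how far probe sets of 1 gene differ from each other in their log2 difference, an SD of 0.54 over 301 genes at signals under 100 and 0.19 over 585 genes at signals of 1000 and over. It leaves out variation between tumours, and each member had only 1 probe set. The differences of Utf1 (1.62) and Gdf3 (1.43) are larger than this SD, as is that of Dppa3 (0.74) by a smaller margin, which does not set them apart from noise. The value of Utf1 lies close to those of Pou5f1 (1.66) and Nanog (1.64), but the latter are lower bounds set by the floor. With no floor Utf1 stayed at 1.62, while Pou5f1 was at 6.59 and Nanog at 2.87, from B6 ES signals that cannot be told from background. The SD therefore cannot be used to compare Utf1, Pou5f1 and Nanog, and they are given no order.

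Dim genes as a class leaned towards the EiPS tumours, which bears on how the members' count is read. Of 1951 genes under the floor in the B6 ES tumours, 26.2% were above it in the EiPS tumours, against 5 of 5 members. In the other direction, 13.7% of 1668 genes under the floor in the EiPS tumours were above it in the B6 ES tumours. Of 1364 genes compared whose B6 ES signal was under 49.0, 19.4% reached 2-fold higher in the EiPS tumours and 3.37% reached 4-fold, against 6 and 2 of the 8 members that were this dim. Of 2804 genes under 49.0 in the B6 ES tumours, 16% exceeded it in the EiPS tumours, against 7 of 8 members, and 7.5% of 2546 genes went the opposite way. None of the 72 silent receptors reached 2-fold by the same rule, but the floor was set from these receptors, so few of them could. Of the 72, 7 exceeded the floor in the EiPS tumours only and 2 in the B6 ES tumours only.

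The stricter background level left fewer members. With the floor at 49.0, Sox2 and Dppa5a were above it in the B6 ES tumours and 9 of 10 genes in the EiPS tumours, all but Zfp42. In that setting 3 members were at least 2-fold higher, against 4.6% of genes compared: Dppa5a, Tdgf1 (1.23 on the log2 scale) and Dppa4 (1.20). Pou5f1 and Nanog were then higher by at least 0.74 and at least 0.72, and Dppa3 by at least 0.10. With a floor of 100 only Dppa5a was at least 2-fold higher, and Pou5f1, Nanog, Dppa3, Utf1, Gdf3 and Zfp42 were under it on both arrays.

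**Figure D3:**
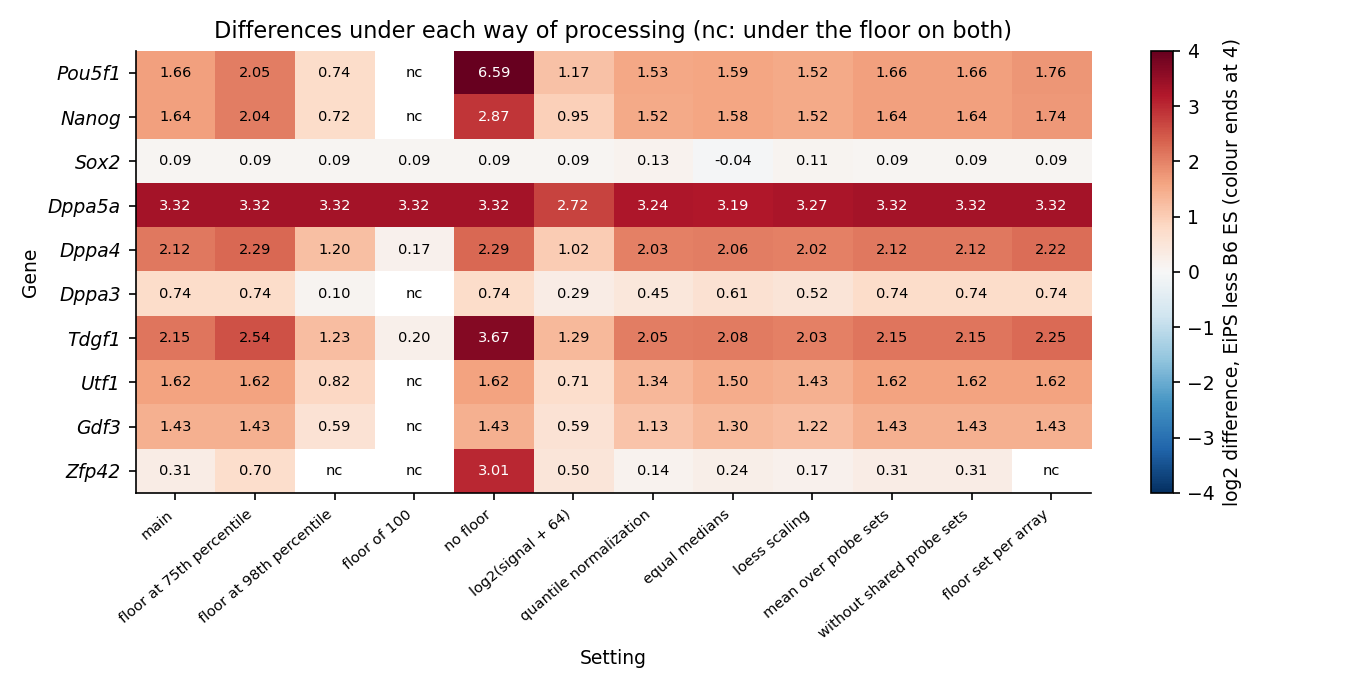
Log2 differences, EiPS less B6 ES, of the 10 genes (rows) under the main setting and 11 alternatives (columns), with nc where a gene was under the floor on both arrays. Dppa5a stays between 2.72 and 3.32 and Sox2 between -0.037 and 0.13, while Pou5f1 runs from 0.74 to 6.59 with the floor.

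Some members sit side by side in the genome (gene order from RefSeq, GRCm38.p6). Gdf3, Dppa3 and Nanog are consecutive protein-coding genes, flanked by Apobec1, which encodes an RNA-editing deaminase, and Slc2a3, which encodes a glucose transporter. All 3 had higher signals in the EiPS tumours, by 2.69-fold, 1.67-fold and at least 3.11-fold, while the flanking genes were far above background on both arrays and differed less. Apobec1 had signals of 160 and 200, 1.25-fold higher, and Slc2a3 of 1750 and 2106, 1.20-fold higher. Further out, Rimklb was 3.12-fold higher (188 and 585) and Necap1 1.36-fold lower (822 and 605), so larger differences in this stretch were not limited to the pluripotency genes.

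Dppa4 is followed by Dppa2, its partner protein with a SAP domain, and then by Morc1, a gene of the male germ line. All 3 were under the floor in the B6 ES tumours and above it in the EiPS tumours. Dppa2 had signals of 3.64 and 59.1, at least 2.27-fold higher, and Morc1 of 21.8 and 47.9, at least 1.84-fold higher. Trat1, the next gene, was under the floor on both arrays, Retnla, further along, was 4.93-fold lower (143 and 29.0), and Nectin3, on the other side of Dppa4, had signals of 451 and 486, 1.08-fold higher. Neighbours were also read for Dppa5a and Pou5f1, but not for Sox2, Tdgf1, Utf1 and Zfp42. Beside Dppa5a, Gsta2 was 1.01-fold higher (63.5 and 64.4), while Ooep, Ddx43 and Cgas, on the other side, have no probe set of their own. Beside Pou5f1, H2-Q10 was 3.15-fold higher (31.2 and 98.3) and Tcf19, on the other side, 1.45-fold higher (269 and 389). All these neighbours were chosen by their position after the members' values were known.

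**Figure D4:**
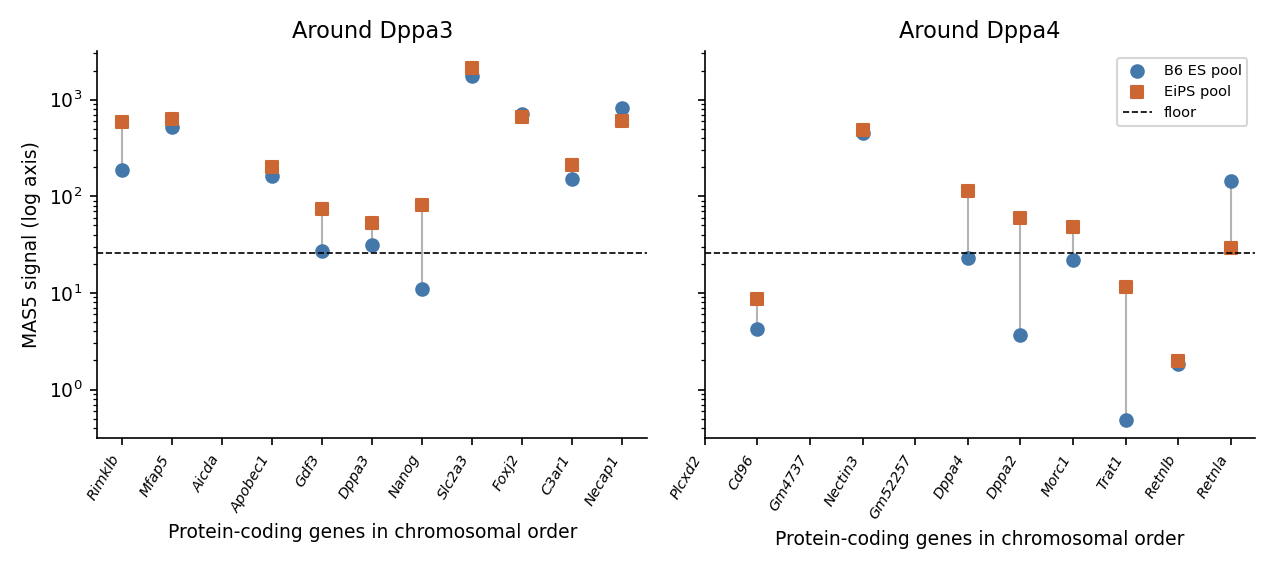
Signals on the B6 ES and EiPS arrays (log axis) of the protein-coding genes around Dppa3 (left) and Dppa4 (right), in chromosomal order, with genes that have no probe set of their own left blank and the floor dashed. Gdf3, Dppa3 and Nanog, and Dppa4, Dppa2 and Morc1, form runs of low signals that are higher in the EiPS tumours.

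The wider pluripotency network was less uniform than the 10 genes. Of 21 other transcription factors of the network, 18 had a probe set and 16 could be compared: 12 were higher in the EiPS tumours and 4 lower, with 2 at least 2-fold higher, 1 at least 2-fold lower and a median of 0.25. Sall4, a zinc finger partner of Pou5f1, had signals of 46.9 and 113, 2.42-fold higher, and Esrrb, an orphan nuclear receptor of the circuit, of 23.7 and 51.5, at least 1.98-fold higher. Foxd3, which is also a neural crest factor, went the other way, with signals of 57.0 and 16.2, at least 2.20-fold lower. Dppa2 was the other gene at least 2-fold higher. Klf4, Klf5 and Myc, which many differentiated tissues also use, had signals well over the floor and differed by 0.75, -0.03 and 0.27 (chosen after their values were known). The other probe set of Klf5 differed by 1.82, with signals of 108 and 380.

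Among 30 other genes enriched in ES cells, 21 could be compared, with 15 higher and 6 lower in the EiPS tumours, 6 at least 2-fold higher, none at least 2-fold lower and a median of 0.49. Tex19.1, active in ES cells and germ cells, had signals of 18.7 and 73.9, at least 2.84-fold higher. Fbxo15, a target of Pou5f1 and Sox2, had signals of 20.0 and 68.0, at least 2.62-fold higher. The DNA methyltransferase gene Dnmt3b was 2.29-fold higher (104 and 239), and its second probe set differed by 0.83. Its cofactor gene Dnmt3l was at least 2.20-fold higher (1.32 and 57.0). Slc7a3, an amino acid transporter, was 1.96-fold lower (382 and 195).

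Genes of the pathways that act on the circuit mostly differed little, apart from the ligands Nodal and Lif and the inhibitor Socs3. Of 21 genes of LIF, Nodal and FGF signalling, all compared, 13 were higher and 8 lower, with 3 at least 2-fold higher, none at least 2-fold lower and a median of 0.08 (-0.050 with equal medians). Nodal, whose co-receptor is Tdgf1, had signals of 14.9 and 82.6, at least 3.18-fold higher. Lif, the cytokine that maintains mouse ES cells and is also made in inflammation, had signals of 29.9 and 111, 3.70-fold higher, and Socs3, a feedback inhibitor induced by such cytokines, of 374 and 990, 2.65-fold higher. All 3 probe sets of Socs3 were higher, by 1.38 to 1.47, whereas the second probe sets of Lif and Nodal were under the floor on both arrays. With probe sets averaged, Lif and Nodal were therefore not compared, and 1 gene was at least 2-fold higher (Socs3) and 1 at least 2-fold lower. The latter was Il6st, the shared cytokine receptor chain, at -1.45, against -0.19 by its brightest probe set. That average includes a dim probe set with signals of 38.2 and 3.11, and its remaining probe set differed by -0.56. The activin receptor gene Acvr2b was 1.48-fold higher and the kinase gene Jak1 1.31-fold lower.

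**Figure D5:**
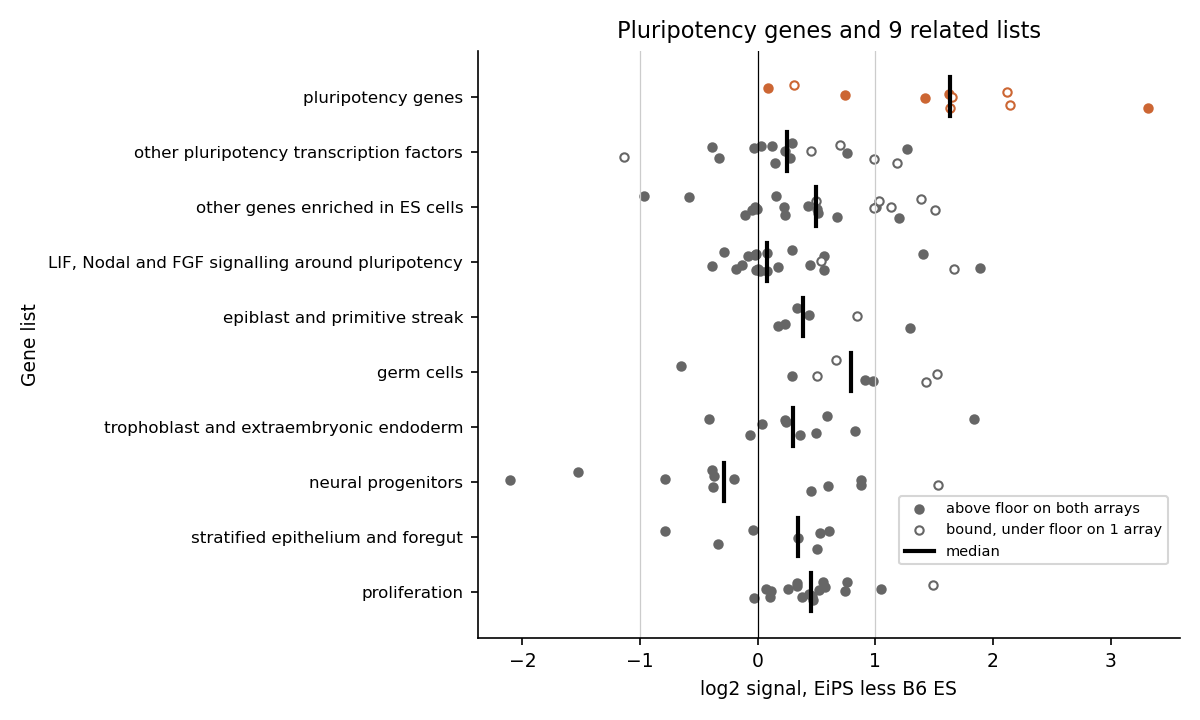
Log2 differences, EiPS less B6 ES, of the 10 pluripotency genes and of the genes of 9 related lists, with filled circles above the floor on both arrays, open circles for bounds, black bars for medians and grey lines at 2-fold. The 10 genes have a median of 1.63, and the related lists have medians from -0.29 to 0.79.

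Most germ cell markers compared were higher in the EiPS tumours, as dim genes more often were, and germ cells also express several of the members. Of 11 germ cell genes with a probe set, 8 were above the floor in the EiPS tumours and 4 in the B6 ES tumours. The signals of the 11 sum to 469 and 228, which depends on probe brightness and does not give amounts of cells. Of the 8 compared, 7 were higher in the EiPS tumours and 2 at least 2-fold, with a median of 0.79. All 8 had B6 ES signals under 49.0, and 19.4% of all genes compared that were this dim reached 2-fold higher. None of the germ cell genes reached 2-fold higher with a floor of 49.0, a floor of 100 or log2(signal + 64), while 5 did with no floor. Ddx4, the germ cell RNA helicase, had signals of 14.2 and 74.9, at least 2.88-fold higher, and the meiotic protein gene Sycp3 of 14.7 and 70.1, at least 2.70-fold higher. Stra8 and Dnd1 were 1.97-fold and 1.89-fold higher, and the sperm protease gene Acr 1.57-fold lower. Piwil2, Tdrd1 and Tex101 were under the floor on both arrays. The part of germ cell RNA in the members' signals was not tested.

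Genes of the states that follow pluripotency were mixed. Of 12 epiblast and primitive streak genes with a probe set, 6 were under the floor on both arrays, among them Fgf5, Mixl1 and Gsc, which mark the epiblast and the streak. The other 6 were all higher in the EiPS tumours, with a median of 0.38. Otx2, a head and epiblast homeobox factor that is also neural, was 2.46-fold higher (86.5 and 212), and Cer1, an inhibitor of Nodal, at least 1.79-fold higher (0.778 and 46.6). The other probe set of Cer1 was under the floor on both arrays (1.67 and 7.92), and with probe sets averaged Cer1 was not compared. In neural progenitors, which share Sox2, 7 of 12 genes compared were lower and 5 higher, with a median of -0.29 that turned to 0.26 when probe sets were averaged. Olig2, of oligodendrocyte and motor neuron progenitors, was 2.89-fold lower, Hes5, a target of Notch, 4.31-fold lower by its brighter probe set, and Neurog2 at least 2.90-fold higher (15.6 and 75.3).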

How the data were processed

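RNA from 2 pooled tumours per group was measured on 1 Affymetrix mouse array per group. The authors deposited a linear intensity for each probe set. Affymetrix Expression Console and MAS5 are named in the submitters' processing notes, without version or settings. Both arrays have a 2% trimmed mean of 500.2. MAS5 subtracts mismatch signal, so low signals are noisy, and its scaling gives relative amounts only. The number of arrays limits the precision, and no test or p-value was computed.

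The 22690 probe sets comprise 64 controls, 20380 with 1 gene symbol, 691 with several and 1555 unnamed here. RefSeq matched 20351 of the 20380 by Entrez identifier. Where a gene had several probe sets, the one brightest on average (log2) was used. The floor was the 90th percentile of 72 silent-receptor probe sets, and 1440 genes under it on both arrays were not compared. All members are named, and in each of the 9 related lists up to 4 genes with the largest absolute difference, plus the largest in the other direction, are named in the main text or the closing observations; exceptions are stated. Genes under the floor on both arrays are named from their values. The members and lists were chosen with earlier results of these data known. The procedure was run on simulated data, and its accuracy for signals near the floor was not tested. Alternatives were other floors (75th percentile, 98th percentile, 100, none), log2(signal + 64), quantile normalization, equal medians, loess with a span of 0.4, averaged probe sets, no shared probe sets and, added after the values were seen, a floor for each array. Python 3.11.15, pandas 2.3.3 and statsmodels 0.14.6 were used. RefSeq lists pseudogenes named for Pou5f1 (7), Nanog (2), Tdgf1 (2), Dppa3 (1) and Zfp42 (1); probe sequences were not used here, so signal from such copies was not separated.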

Additional observations from a re-analysis of the deposited data

How the results depend on the processing

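The alternatives gave 102 differences for the 10 genes, of which 101 were above 0. The exception was Sox2 with equal medians (-0.037), a scaling that shifts the median of all genes by -0.12. This count is not independent evidence, since every alternative reuses the same 2 arrays. Averaging probe sets and leaving out shared ones could not change any member, as each has 1 probe set, so both repeat the main values. Where a floor applies, a compared gene under it in the B6 ES tumours cannot have a difference below 0. The number above the floor in the B6 ES tumours, 5, was 2 with a floor at the 98th percentile, 2 with a floor of 100 and 10 with no floor. The number in the EiPS tumours, 10, was 4 with a floor of 100, and 9, without Zfp42, with a floor at the 98th percentile or a floor for each array. The number at least 2-fold higher, 7, was 3 with a floor at the 98th percentile, 1 with a floor of 100 and 4 with log2(signal + 64). The members' median of 1.63 was 0.74 with a floor at the 98th percentile, 0.19 with a floor of 100, 2.58 with no floor and 0.83 with log2(signal + 64). Higher floors leave fewer genes, and these values follow from the floor or pseudocount itself, since 8 of 10 members had B6 ES signals under 49.0. Of the related lists, the LIF, Nodal and FGF median turned to -0.050 with equal medians, the scaling that shifts all genes. The neural progenitor median turned to 0.26 with probe sets averaged. Sox3 (-0.21) and Pax6 (-0.39) were then under the floor on both arrays and left out, and Nes moved from -0.38 to 0.008. In the LIF, Nodal and FGF list, averaging also changed the genes past 2-fold from 3 higher and 0 lower to 1 higher and 1 lower. Lif and Nodal were then under the floor on both arrays, and Il6st passed 2-fold lower with a dim probe set in its average. Of genes past 2-fold in either direction, the share that was higher was 65.5% with the deposited scaling and 52.5% after quantile normalization. No paired analysis was possible because each group has 1 array, and no replicate could be left out.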

Other observations

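Genes of proliferation were slightly higher in the EiPS tumours as a group. All 18 with a probe set could be compared, 17 were higher and 1 lower, 2 were at least 2-fold higher, and the median was 0.45 on the log2 scale. Mki67, the antigen of cycling cells, had signals of 642 and 1086, 1.69-fold higher, and Birc5, a mitotic and survival protein gene, was 1.67-fold higher. The spindle checkpoint gene Bub1 was 2.07-fold higher by its brighter probe set, while the other differed by 0.34 (log2). Tyms, of thymidylate synthesis, was at least 2.80-fold higher (13.9 and 72.8) by its brightest probe set and under the floor on both arrays with its probe sets averaged, and Ccnb2 differed by -0.03.

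Genes of trophoblast and extraembryonic endoderm, early lineages outside the embryo proper, were above the floor on both arrays for all 10 genes, with 8 higher in the EiPS tumours, 1 of them by at least 2-fold, and a median of 0.30. Afp, made by yolk sac and fetal liver, was 3.58-fold higher (238 and 853), with probe sets from 0.19 to 1.85 on the log2 scale. Foxa2, an endoderm factor, was 1.77-fold, Tfap2c, a factor of trophoblast and germ cells, 1.50-fold and Cdx2, a factor of trophoblast and intestine, 1.41-fold higher, while Gata4 was 1.34-fold lower. Of 7 genes of stratified epithelium and foregut compared, 4 were higher and 3 lower and none reached 2-fold, with a median of 0.34. Krt13, Krt5 and Krt4, keratins of stratified epithelium, were 1.52-fold, 1.45-fold and 1.42-fold higher, and Sox21, a relative of Sox2, was 1.72-fold lower. Among neural progenitor genes, the receptor gene Notch1 was 1.84-fold higher. Of the epiblast genes, Mesp1 and Pou3f1 were 1.35-fold and 1.26-fold higher.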
